A study of Mus musculus with 28 samples.

Results

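The genes described here make serine, glycine, proline, asparagine and one-carbon units in the cell, or belong to the ATF4 stress programme that can switch such genes on. The members were Phgdh, Psat1, Psph, Shmt1, Shmt2, Aldh18a1, Asns, Bcat1, Atf4 and Chac1, taken as the probe sets that the platform's annotation gives to 1 of these symbols alone. Each gene was read through its brightest probe set, by the mean log2 intensity over 26 arrays, and all 10 members were found among the 17097 genes tested. The genes were chosen by name and function, not by a measured value, although earlier results of these data were known.

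Whole-transcriptome arrays, 1 for each sample, were used to measure mRNA in the total CD4+ T cell population purified from spleen of female mice aged 12 weeks and kept in complete RPMI medium. The first of 3 strains, Sle1b.BACSlamf6-H1 (shortened to Sle1b.BAC), adds to B6.Sle1b an artificial chromosome that its name ties to the H1 form of Slamf6. The second, B6.Sle1b, carries a lupus-linked interval of chromosome 1 with the SLAM receptor genes on a C57BL/6 background, and the third, C57BL/6, has neither. Cells of each strain were unstimulated or had spent 4 h or 24 h on plate-bound antibody to CD3 (145-2C11, 0.1 µg/ml), which engages the T cell receptor without a second, costimulatory antibody being named. Each of the 9 groups had 3 arrays labelled biological, except C57BL/6 at 24 h with 2. Another 2 arrays of C57BL/6 at 24 h were labelled technical and stayed out of the tests. An interval carries many genes beside Slamf6, total CD4+ cells mix naive, memory and regulatory cells, and the labels do not say that the samples of a group came from separate mice. The p-values therefore rest on the spread among these samples alone, part of which may be technical.

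T cells that leave quiescence need amino acids for protein and one-carbon units for purines and thymidylate. Phgdh, Psat1 and Psph convert a glycolytic intermediate into serine in that order, and Shmt1 in the cytosol and Shmt2 in the mitochondrion split serine into glycine and a folate-bound one-carbon unit. Aldh18a1 turns glutamate into the precursor of proline and ornithine, Asns makes asparagine from aspartate, and Bcat1 transaminates leucine, isoleucine and valine in the cytosol. ATF4 is a transcription factor of the integrated stress response whose production is set largely at translation, so its mRNA need not follow its protein, which was not measured here. It binds composite C/EBP-ATF elements near genes of amino acid supply and of redox balance, among them Asns and Chac1, an enzyme that degrades glutathione.

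None of the 10 members lies on chromosome 1, which holds the Sle1b interval. Psat1 and Aldh18a1 are on chromosome 19, Asns and Bcat1 on chromosome 6, Phgdh on 3, Psph on 5, Shmt1 on 11, Shmt2 on 10, Atf4 on 15 and Chac1 on 2. RefSeq promoters of assembly GRCm38.p6, from 250 bases before to 50 after each annotated start, were at hand for all 10 genes, 12 promoters in all. The 8-letter C/EBP-ATF element TGATGNAA, searched on both strands, occurred in 2 of the 12, against 3.97% of 32851 promoters genome-wide. An E-box with the letters CACGTG, the site type bound by MYC and related factors, occurred in 1 of the 12, against 7.15% of all. The 2 motifs share no overlapping match here, and a match describes letters in a window, not a bound site. The 3 promoters with a match are shown because they hold the only such letters among the members. Each is the 250 bases before the start, read 5′ to 3′ on the gene's strand, with the matched letters in capitals. In Asns, on the minus strand at chr6:7693210-7693459, the element ran from base -23 to base -16 before the start. In Chac1, on the plus strand at chr2:119350992-119351241, it lay on the opposite strand from -193 to -186, so the capitals show its reverse complement. In Aldh18a1, on the minus strand at chr19:40588464-40588713, the E-box ran from -59 to -54.
Asns: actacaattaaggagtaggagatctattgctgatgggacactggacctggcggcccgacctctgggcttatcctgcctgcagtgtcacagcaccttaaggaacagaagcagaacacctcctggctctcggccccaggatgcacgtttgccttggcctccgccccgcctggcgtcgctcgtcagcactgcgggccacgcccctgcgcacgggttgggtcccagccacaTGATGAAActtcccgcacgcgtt
Chac1: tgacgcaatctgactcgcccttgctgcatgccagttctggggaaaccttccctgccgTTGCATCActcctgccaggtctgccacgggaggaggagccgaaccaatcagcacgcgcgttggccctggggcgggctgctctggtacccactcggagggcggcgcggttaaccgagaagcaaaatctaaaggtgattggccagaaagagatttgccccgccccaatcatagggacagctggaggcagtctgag
Aldh18a1: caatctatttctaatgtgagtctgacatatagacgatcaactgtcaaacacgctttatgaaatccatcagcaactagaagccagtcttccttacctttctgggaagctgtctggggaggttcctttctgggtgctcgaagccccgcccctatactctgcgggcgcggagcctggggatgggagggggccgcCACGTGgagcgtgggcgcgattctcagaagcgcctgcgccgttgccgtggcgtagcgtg

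The 75th percentile of an array's intensity lay between 34.2 and 53.3, and the background, set from 23 non-specific control probe sets, at a log2 intensity between 2.76 and 3.21. Outside the 24 h groups 3 arrays were dimmer than the rest at that percentile, namely array 2 of Sle1b.BAC at 4 h (34.2), unstimulated array 3 of B6.Sle1b (35.6) and unstimulated array 2 of C57BL/6 (34.8). Each of the 8 measured genes of 9 markers of CD4 T cells was above background on at least 1 array of every group. The number of arrays limits the precision. All members except Bcat1 were above background on 26 of 26 arrays, and Bcat1 on 23. Levels are log2 intensities given array by array, and they compare groups within a gene, never gene with gene. Differences are log2 ± standard error (SE) from 1 limma fit over the 26 arrays. A gene is called where the Benjamini-Hochberg adjusted p over all 17097 genes was under 0.05. In such bulk samples more RNA per cell and more cells of a kind that holds the RNA cannot be told apart.

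After 24 h on antibody to CD3, 8 of the 10 members were called in Sle1b.BAC, 6 in B6.Sle1b and 6 in C57BL/6, all of them higher than in unstimulated cells of the strain. For comparison, 29.1%, 28.2% and 24.3% of all genes were called there, and 17.2%, 14.8% and 15.7% were called higher. Psat1, Psph, Shmt2, Aldh18a1 and Bcat1 rose in all 3 strains. Phgdh rose in Sle1b.BAC, Shmt1 in both lines with the Sle1b interval, and Asns in Sle1b.BAC and C57BL/6. Atf4 and Chac1 were called in none. At 4 h only Bcat1 was called in each strain, with Psph beside it in Sle1b.BAC and Psat1, Psph and Aldh18a1 beside it in C57BL/6. That made 2 members in Sle1b.BAC, 1 in B6.Sle1b and 4 in C57BL/6, against 10.6%, 5.69% and 7.04% of all genes (4.22%, 2.57% and 4.08% called higher). Between 4 h and 24 h 7 members rose in Sle1b.BAC, 5 in B6.Sle1b and 5 in C57BL/6, with 24.8%, 24.2% and 18.6% of all genes called (16.9%, 13.1% and 12% higher). The median difference of the 10 members at 24 h was 1.37 in Sle1b.BAC, 1.45 in B6.Sle1b and 1.34 in C57BL/6, while the median over all genes was 0.06, 0.07 and 0.04.

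**Figure D1:**
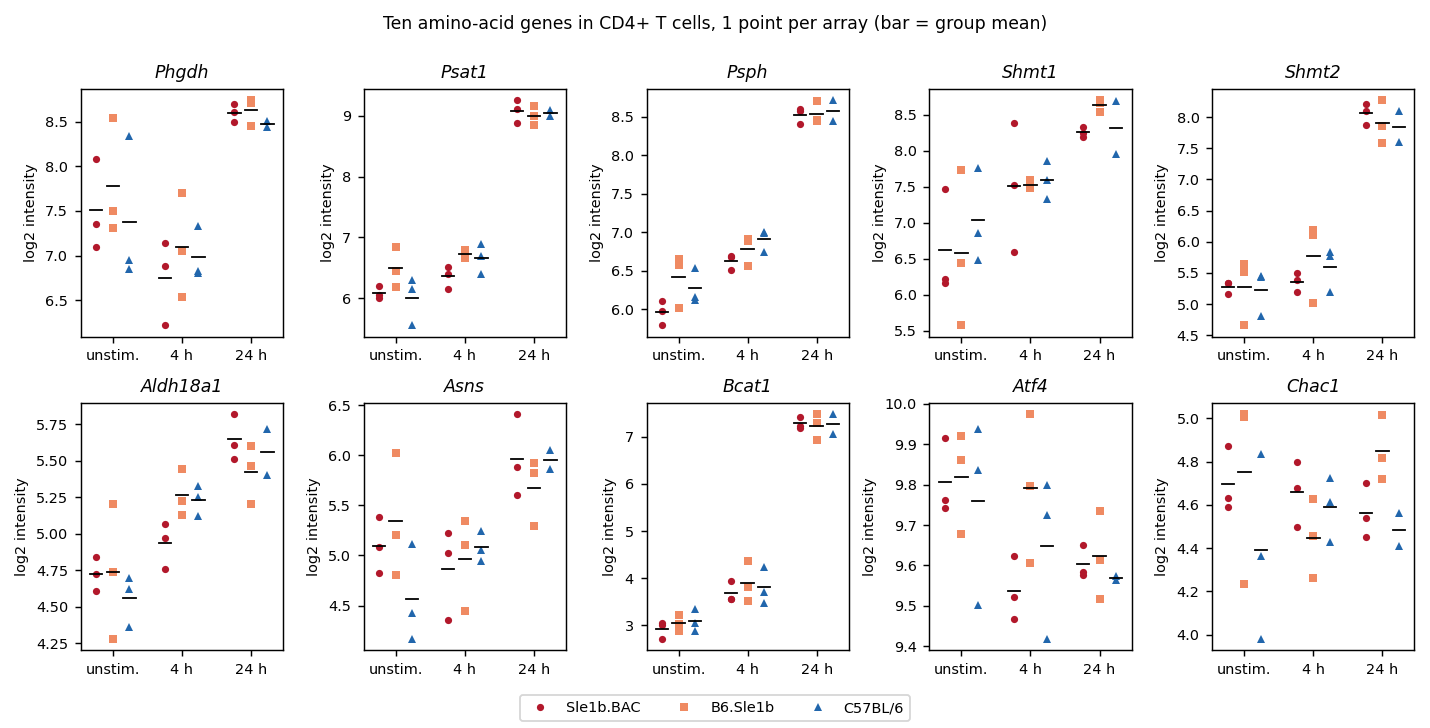
Log2 intensity of each of the 10 genes, 1 panel per gene with its own vertical scale, 1 point per array and a bar at the group mean, for unstimulated cells and 4 h and 24 h of anti-CD3 in Sle1b.BAC (circles), B6.Sle1b (squares) and C57BL/6 (triangles). Psat1, Psph, Shmt2 and Bcat1 stand clear of their earlier values at 24 h in every strain, whereas the group means of Atf4 and Chac1 span 0.28 and 0.46 log2 units.

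All 3 serine synthesis genes rose between 4 h and 24 h in every strain. They are Phgdh, the dehydrogenase that commits carbon to the pathway, and Psat1 and Psph, the aminotransferase and the phosphatase that follow it. Phgdh on the Sle1b.BAC arrays was 8.08, 7.36 and 7.09 unstimulated, 7.14, 6.88 and 6.22 at 4 h and 8.70, 8.61 and 8.50 at 24 h. In B6.Sle1b Phgdh was 7.30, 7.50 and 8.54 unstimulated, 6.53, 7.05 and 7.70 at 4 h and 8.74, 8.46 and 8.71 at 24 h. Phgdh in C57BL/6 was 6.85, 6.95 and 8.35 unstimulated, 6.80, 6.82 and 7.33 at 4 h and 8.51 and 8.44 at 24 h. The 24 h arrays lay close together and above every 4 h array, while the unstimulated arrays were spread over about 1 log2 unit or more and, in B6.Sle1b, overlapped the 24 h ones. The 4 h differences from unstimulated cells were -0.76 ± 0.37 in Sle1b.BAC, -0.69 ± 0.37 in B6.Sle1b and -0.40 ± 0.37 in C57BL/6 and none was called (limma adjusted p = 0.221, 0.450 and 0.769). From 4 h to 24 h Phgdh rose 3.62-fold in Sle1b.BAC (1.85 ± 0.37), 2.92-fold in B6.Sle1b (1.54 ± 0.37) and 2.81-fold in C57BL/6 (1.49 ± 0.42), with limma adjusted p = 0.000515, 0.00306 and 0.0123. Against unstimulated cells the 24 h difference was 1.09 ± 0.37 in Sle1b.BAC (limma adjusted p = 0.0293), 0.86 ± 0.37 in B6.Sle1b (0.0951) and 1.09 ± 0.42 in C57BL/6 (0.0608), so that only the first was called. That call was lost, with adjusted p between 0.0541 and 0.135, when array 2 or 3 of the unstimulated Sle1b.BAC group or any of its 3 arrays at 24 h was left out. In C57BL/6 the rise from 4 h to 24 h was not called without array 1 (1.46, adjusted p = 0.0916) or array 2 (1.52, 0.0671) of the 24 h group.

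Psat1 rose at 24 h in all 3 strains, against unstimulated and against 4 h cells. Psat1 on the Sle1b.BAC arrays was 6.01, 6.20 and 6.06 unstimulated, 6.51, 6.16 and 6.41 at 4 h and 9.11, 8.88 and 9.26 at 24 h. In B6.Sle1b Psat1 was 6.84, 6.46 and 6.19 unstimulated, 6.73, 6.79 and 6.67 at 4 h and 9.17, 8.85 and 8.99 at 24 h. Psat1 in C57BL/6 was 6.30, 5.55 and 6.15 unstimulated, 6.69, 6.89 and 6.40 at 4 h and 9.10 and 9.0 at 24 h. In every strain the 24 h arrays lay above all others with no overlap, by more than 2 log2 units. The rise at 24 h over unstimulated cells was 7.96-fold in Sle1b.BAC (2.99 ± 0.18, limma adjusted p = 3.59e-11), 5.68-fold in B6.Sle1b (2.51 ± 0.18, 4.24e-10) and 8.28-fold in C57BL/6 (3.05 ± 0.20, 2.27e-10). From 4 h to 24 h it rose 6.60-fold, 4.84-fold and 5.24-fold in the same order of strains (limma adjusted p = 2.59e-10, 3.80e-09 and 1.82e-08). At 4 h the difference was 0.27 ± 0.18 in Sle1b.BAC, 0.23 ± 0.18 in B6.Sle1b and 0.66 ± 0.18 in C57BL/6, and only the last was called (limma adjusted p = 0.401, 0.709 and 0.0242). Ordered by mean, the 3 groups at 24 h came first and overlapped each other, a gap without overlap followed, from B6.Sle1b at 24 h (9.0 ± 0.16, mean ± SD, n = 3) to B6.Sle1b at 4 h (6.73 ± 0.06, n = 3), and the 6 groups below it overlapped from neighbour to neighbour.

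Psph rose at both times in Sle1b.BAC and C57BL/6, and in B6.Sle1b it was called at 24 h alone. Psph on the Sle1b.BAC arrays was 5.79, 5.99 and 6.11 unstimulated, 6.51, 6.68 and 6.70 at 4 h and 8.57, 8.40 and 8.59 at 24 h. In B6.Sle1b Psph was 6.57, 6.02 and 6.66 unstimulated, 6.91, 6.56 and 6.88 at 4 h and 8.70, 8.44 and 8.45 at 24 h. Psph in C57BL/6 was 6.13, 6.53 and 6.16 unstimulated, 6.75, 6.99 and 7.01 at 4 h and 8.71 and 8.44 at 24 h. The 4 h and unstimulated arrays were apart in Sle1b.BAC and C57BL/6 and overlapped in B6.Sle1b, and the 24 h arrays were above both in all strains. At 4 h the rise was 1.59-fold in Sle1b.BAC (0.67 ± 0.16, limma adjusted p = 0.00680) and 1.56-fold in C57BL/6 (0.64 ± 0.16, 0.0119), and the difference in B6.Sle1b was 0.37 ± 0.16 (0.250). At 24 h it was 5.90-fold in Sle1b.BAC (2.56 ± 0.16, limma adjusted p = 4.60e-11), 4.32-fold in B6.Sle1b (2.11 ± 0.16, 7.14e-10) and 4.93-fold in C57BL/6 (2.30 ± 0.17, 1.99e-09). The step from 4 h to 24 h was 3.71-fold, 3.35-fold and 3.16-fold in that order (limma adjusted p = 7.49e-09, 2.69e-08 and 4.60e-07). Unstimulated Sle1b.BAC had the lowest mean of the 9 groups (5.96 ± 0.16, SD, n = 3), followed by unstimulated C57BL/6 (6.27 ± 0.23, n = 3). The highest array of the first (6.11) lay just below the lowest of the second (6.13). An unstimulated B6.Sle1b array at 6.02 fell within the Sle1b.BAC range.

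The serine hydroxymethyltransferases followed, Shmt2 for the mitochondrion and Shmt1 for the cytosol. Shmt2 on the Sle1b.BAC arrays was 5.35, 5.33 and 5.17 unstimulated, 5.50, 5.20 and 5.38 at 4 h and 8.21, 7.87 and 8.10 at 24 h. In B6.Sle1b Shmt2 was 5.65, 5.51 and 4.66 unstimulated, 6.19, 6.11 and 5.01 at 4 h and 8.27, 7.85 and 7.59 at 24 h. Shmt2 in C57BL/6 was 5.43, 4.81 and 5.45 unstimulated, 5.83, 5.77 and 5.20 at 4 h and 8.09 and 7.60 at 24 h. Unstimulated and 4 h arrays overlapped in every strain, and all 24 h arrays were more than 1 log2 unit above them. Shmt2 rose at 24 h 6.86-fold in Sle1b.BAC (2.78 ± 0.28, limma adjusted p = 7.77e-08), 6.19-fold in B6.Sle1b (2.63 ± 0.28, 2.03e-07) and 6.14-fold in C57BL/6 (2.62 ± 0.32, 1.35e-06). At 4 h the differences of 0.08, 0.50 and 0.37 in Sle1b.BAC, B6.Sle1b and C57BL/6 were not called (limma adjusted p = 0.904, 0.501 and 0.672). Between 4 h and 24 h Shmt2 rose 6.50-fold, 4.38-fold and 4.75-fold in the same order (limma adjusted p = 1.99e-07, 5.22e-06 and 1.67e-05). The 3 dim arrays held the lowest Shmt2 value of their groups.

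Shmt1 on the Sle1b.BAC arrays was 6.22, 6.16 and 7.47 unstimulated, 6.60, 8.39 and 7.52 at 4 h and 8.33, 8.19 and 8.25 at 24 h. In B6.Sle1b Shmt1 was 6.44, 5.57 and 7.73 unstimulated, 7.49, 7.49 and 7.59 at 4 h and 8.67, 8.53 and 8.70 at 24 h. Shmt1 in C57BL/6 was 6.85, 7.76 and 6.49 unstimulated, 7.34, 7.85 and 7.60 at 4 h and 7.96 and 8.69 at 24 h. Before 24 h the arrays of a group differed by up to about 2 log2 units, with the 3 dim arrays at the top of their groups, and the within-group SD of 0.61, pooled over the 9 groups, was the highest of the 10 members. The difference at 24 h was 1.65 ± 0.45 in Sle1b.BAC (limma adjusted p = 0.00717), 2.05 ± 0.45 in B6.Sle1b (0.00122) and 1.29 ± 0.51 in C57BL/6 (0.0708), the last of which was not called. With each array's 75th percentile as a covariate the 24 h difference was 1.34 in Sle1b.BAC and 1.44 in B6.Sle1b, and without the 3 dim arrays it was 1.65 and 2.63, all 4 called.

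Other probe sets of Shmt1 gave larger and steadier differences at 24 h, and the sets were divided at 4 h. The platform has 4 for this gene and 20 for the 10 members, and the other sets were compared after their values had been seen, with p adjusted over all 45141 probe sets. Probe set 1425179_PM_at of Shmt1, second in brightness, averaged 8.80 at 24 h against 4.04 unstimulated in Sle1b.BAC, 8.65 against 4.31 in B6.Sle1b and 8.67 against 4.40 in C57BL/6. Its difference was 4.76 ± 0.30 (limma adjusted p = 1.21e-10), 4.34 ± 0.30 (4.54e-10) and 4.27 ± 0.33 (5.10e-09) in that order of strains. At 4 h the same set was already 2.29 ± 0.30 higher in Sle1b.BAC, 2.11 ± 0.30 higher in B6.Sle1b and 2.04 ± 0.30 higher in C57BL/6 (limma adjusted p = 2.66e-05, 9.96e-05 and 0.000110). Set 1425178_PM_s_at of Shmt1 rose by 3.37, 2.91 and 3.56 at 24 h and by 1.12, 0.95 and 1.28 at 4 h, all 6 called. Read through either of these sets, Shmt1 rose at 24 h in all 3 strains, and by more than through the brightest set.

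The other members with several probe sets kept their direction at 24 h wherever the further set was above background on at least 13 of the 26 arrays. Phgdh set 1426657_PM_s_at differed by 1.41 ± 0.47 in Sle1b.BAC, 0.95 ± 0.47 in B6.Sle1b and 1.55 ± 0.53 in C57BL/6 (limma adjusted p = 0.0315, 0.167 and 0.0418), so that by this set Phgdh rose in C57BL/6 as well. Aldh18a1 set 1415836_PM_at gave 1.36 ± 0.36, 0.92 ± 0.36 and 1.44 ± 0.41, and the B6.Sle1b difference was then not called (limma adjusted p = 0.0754). Shmt2 set 1455985_PM_x_at rose by only 0.89, 0.74 and 0.75, at levels between 3.42 and 4.31 on the log2 scale that are close to background. Bcat1 set 1430111_PM_a_at, above background on 6 of 26 arrays, rose by only 0.86, 1.13 and 0.67 at 24 h in Sle1b.BAC, B6.Sle1b and C57BL/6. All were called (limma adjusted p = 0.00100, 6.85e-05 and 0.0222). Shmt2 set 1434204_PM_x_at, above background on 10 of 26, rose by 2.16, 2.05 and 1.80, all called. Atf4 set 1439258_PM_at and Bcat1 set 1455699_PM_at were above background on 0 of 26 arrays. As the suffixes _x_at, _s_at and _a_at mark sets whose probes can match further transcripts, the sizes by gene are tied to the set read.

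**Figure D2:**
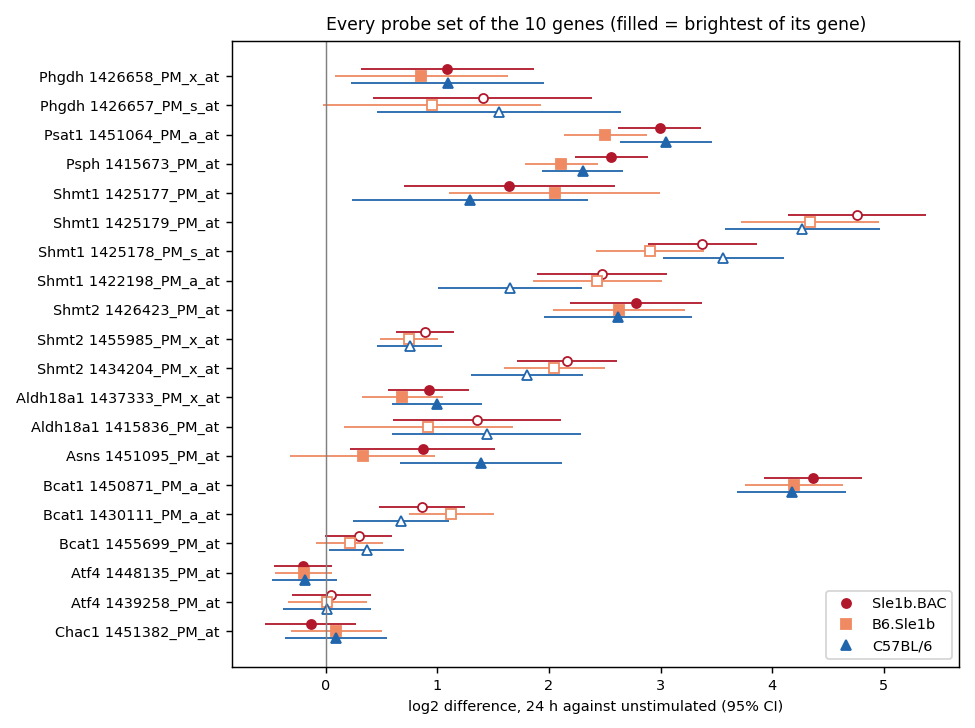
Difference between 24 h and unstimulated cells on the log2 scale, with 95% confidence intervals, for all 20 probe sets of the 10 genes in Sle1b.BAC, B6.Sle1b and C57BL/6, with filled symbols for the brightest set of each gene. The brightest set of Shmt1 (1425177_PM_at) has the smallest differences of its 4 sets and wide intervals, and set 1425179_PM_at lies between 4.27 and 4.76 in the 3 strains.

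Aldh18a1, the entry enzyme of proline and ornithine synthesis, rose modestly. Aldh18a1 on the Sle1b.BAC arrays was 4.61, 4.84 and 4.72 unstimulated, 5.07, 4.76 and 4.97 at 4 h and 5.61, 5.51 and 5.82 at 24 h. In B6.Sle1b Aldh18a1 was 5.21, 4.74 and 4.28 unstimulated, 5.44, 5.13 and 5.22 at 4 h and 5.47, 5.60 and 5.21 at 24 h. Aldh18a1 in C57BL/6 was 4.70, 4.36 and 4.62 unstimulated, 5.33, 5.25 and 5.12 at 4 h and 5.71 and 5.40 at 24 h. The 24 h arrays were clear of the unstimulated ones in Sle1b.BAC and C57BL/6, and in B6.Sle1b the lowest at 24 h and the highest unstimulated both read 5.21. The rise at 24 h was 1.90-fold in Sle1b.BAC (0.92 ± 0.17, limma adjusted p = 0.000223), 1.61-fold in B6.Sle1b (0.68 ± 0.17, 0.00430) and 2.00-fold in C57BL/6 (1.0 ± 0.20, 0.000420). In C57BL/6 most of it was present at 4 h (0.67 ± 0.17, limma adjusted p = 0.0187), and the further 24 h step of 0.33 ± 0.20 was not called (0.338). In Sle1b.BAC the 4 h difference was 0.21 ± 0.17 (0.518) and the step from 4 h to 24 h was called (0.71 ± 0.17, limma adjusted p = 0.00340). Whether these courses differ between those strains was not tested directly, and the 4 h arrays of Sle1b.BAC differed from those of C57BL/6 by -0.30 ± 0.17 (limma adjusted p = 0.999).

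Asns, asparagine synthetase, varied more between arrays of a group than most members did. Asns on the Sle1b.BAC arrays was 4.82, 5.39 and 5.09 unstimulated, 4.35, 5.23 and 5.03 at 4 h and 5.88, 5.61 and 6.41 at 24 h. In B6.Sle1b Asns was 6.03, 4.81 and 5.21 unstimulated, 5.35, 4.44 and 5.10 at 4 h and 5.92, 5.29 and 5.82 at 24 h. Asns in C57BL/6 was 5.12, 4.16 and 4.42 unstimulated, 5.24, 5.06 and 4.94 at 4 h and 6.05 and 5.86 at 24 h. The highest unstimulated B6.Sle1b array, at 6.03, lay above all 3 of that strain at 24 h, whereas the 24 h arrays were clear of the unstimulated ones in Sle1b.BAC and C57BL/6. Asns rose at 24 h 1.83-fold in Sle1b.BAC (0.87 ± 0.31, limma adjusted p = 0.0385) and 2.62-fold in C57BL/6 (1.39 ± 0.35, 0.00400), and the difference in B6.Sle1b was 0.33 ± 0.31 (0.486). The call in Sle1b.BAC was lost without array 1 (0.73, adjusted p = 0.154) or 3 (0.86, 0.0834) of the unstimulated group or array 1 (0.91, 0.0692) or 3 (0.65, 0.20) of the 24 h group, and that in C57BL/6 without array 1 at 24 h (1.29, 0.0513). From 4 h to 24 h Asns was called in Sle1b.BAC alone among the strains (1.10 ± 0.31, limma adjusted p = 0.0104), and not without array 1 at 4 h (0.84, 0.0738) or array 3 at 24 h (0.87, 0.0773), while the step was 0.71 ± 0.31 in B6.Sle1b (0.109) and 0.88 ± 0.35 in C57BL/6 (0.0916). The neighbouring groups in order of Asns level all overlapped, from Sle1b.BAC at 24 h (5.97 ± 0.41, SD, n = 3) at the top to unstimulated C57BL/6 (4.57 ± 0.49, n = 3) at the bottom.

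Bcat1, the cytosolic branched-chain aminotransferase, showed the widest span of group means among the members, 4.36 log2 units. Bcat1 on the Sle1b.BAC arrays was 3.05, 2.70 and 3.01 unstimulated, 3.94, 3.55 and 3.56 at 4 h and 7.43, 7.19 and 7.23 at 24 h. In B6.Sle1b Bcat1 was 3.21, 3.02 and 2.88 unstimulated, 3.52, 4.35 and 3.82 at 4 h and 7.48, 7.28 and 6.93 at 24 h. Bcat1 in C57BL/6 was 3.05, 2.88 and 3.35 unstimulated, 3.71, 4.23 and 3.48 at 4 h and 7.48 and 7.06 at 24 h. In each strain the 3 times stood apart without overlap. Unstimulated Bcat1 was above background on 2 of 3 arrays of each strain, so each fold over unstimulated cells is given as a lower bound. It was taken after raising unstimulated arrays below their background to it. The bound covers the floor of this probe set alone, not the spread between arrays or the smaller rise of set 1430111_PM_a_at. Bcat1 was at least 20.1-fold higher at 24 h in Sle1b.BAC (4.36 ± 0.21 as measured, limma adjusted p = 1.56e-12), at least 17.6-fold in B6.Sle1b (4.19 ± 0.21, 3.10e-12) and at least 16.7-fold in C57BL/6 (4.18 ± 0.24, 3.15e-11). At 4 h it was at least 1.66-fold, 1.74-fold and 1.52-fold higher in Sle1b.BAC, B6.Sle1b and C57BL/6 (limma adjusted p = 0.0218, 0.0145 and 0.0421). From 4 h to 24 h, with every array above background, the rise was 12.1-fold, 10.1-fold and 11-fold in the same order.

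**Figure D3:**
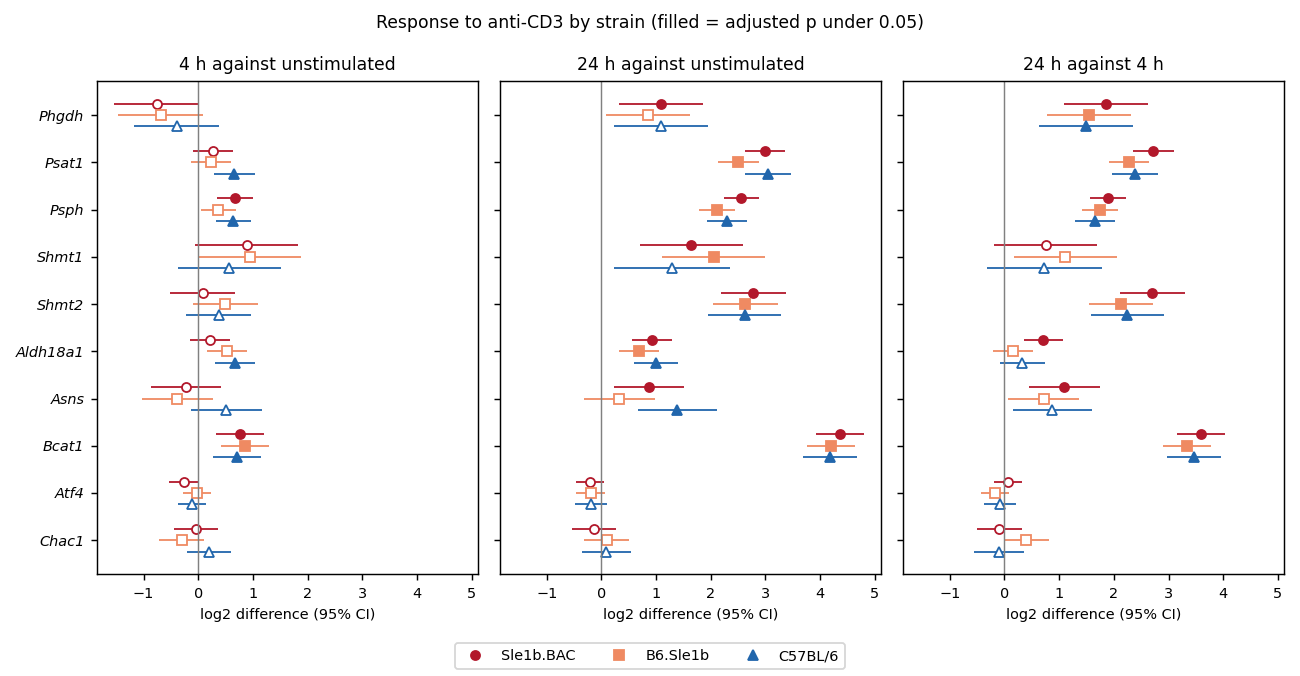
Differences on the log2 scale with 95% confidence intervals for the 10 genes, in panels for 4 h against unstimulated, 24 h against unstimulated and 24 h against 4 h, with filled symbols where the adjusted p was under 0.05. Bcat1 lies furthest to the right in the 2 panels with 24 h, Phgdh lies left of 0 at 4 h in all 3 strains without being called, and Atf4 and Chac1 stay near 0.

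Atf4 and Chac1 had the narrowest spans of group means among the members and were called in no comparison of times. Atf4 on the Sle1b.BAC arrays was 9.92, 9.74 and 9.76 unstimulated, 9.62, 9.52 and 9.47 at 4 h and 9.65, 9.58 and 9.58 at 24 h. In B6.Sle1b Atf4 was 9.86, 9.92 and 9.68 unstimulated, 9.80, 9.97 and 9.61 at 4 h and 9.74, 9.61 and 9.52 at 24 h. Atf4 in C57BL/6 was 9.94, 9.50 and 9.84 unstimulated, 9.80, 9.72 and 9.42 at 4 h and 9.57 and 9.56 at 24 h. Its 9 group means spanned 0.28 log2 units, with a pooled within-group SD of 0.14. The Atf4 difference at 4 h was -0.27 in Sle1b.BAC, -0.03 in B6.Sle1b and -0.11 in C57BL/6, none of them called. In Sle1b.BAC the unstimulated arrays lay above those at 4 h and at 24 h without overlap, and in the other strains they overlapped both. At 24 h the difference was -0.20 in Sle1b.BAC (95% interval -0.46 to 0.06), -0.20 in B6.Sle1b (-0.46 to 0.06) and -0.19 in C57BL/6 (-0.48 to 0.10), and none was called (limma adjusted p = 0.279, 0.273 and 0.426). A rise of Atf4 mRNA by more than 0.10 on the log2 scale lies outside all 3 intervals.

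Chac1 on the Sle1b.BAC arrays was 4.63, 4.59 and 4.87 unstimulated, 4.50, 4.80 and 4.68 at 4 h and 4.54, 4.45 and 4.70 at 24 h. In B6.Sle1b Chac1 was 5.01, 4.23 and 5.02 unstimulated, 4.46, 4.26 and 4.63 at 4 h and 5.01, 4.81 and 4.72 at 24 h. Chac1 in C57BL/6 was 4.84, 3.98 and 4.36 unstimulated, 4.72, 4.43 and 4.61 at 4 h and 4.41 and 4.56 at 24 h. All groups overlapped their neighbours in order of level. At 24 h, however, the B6.Sle1b arrays all lay above those of Sle1b.BAC (by little, 4.72 against 4.70) and of C57BL/6, without a called difference. The 24 h difference was -0.13 in Sle1b.BAC (95% interval -0.54 to 0.27), 0.10 in B6.Sle1b (-0.31 to 0.50) and 0.09 in C57BL/6 (-0.36 to 0.55), with limma adjusted p = 0.729, 0.776 and 0.870. Whether the promoter letters of Asns, Chac1 and Aldh18a1 bear on their courses was not tested.

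The calls at 4 h rested on few arrays. In C57BL/6 the count of 4 members was 2 without array 1 of the unstimulated group, 1 without its array 2, 1 without array 1 of the 4 h group and 0 without its array 2, and it was 0 when only the groups compared were fitted. In B6.Sle1b the count of 1 was 2 without array 1 of the unstimulated group and 0 without array 2 at 4 h. In Sle1b.BAC the count of 2 was 1 without array 2 of the unstimulated group or array 1 at 4 h, Bcat1 being the call lost.

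Across the 9 group means the members that rose shared 1 shape to a differing degree, and these 9 points share arrays, strains and times. Pearson's r lay between 0.982 and 0.995 for the 6 pairs among Psat1, Psph, Shmt2 and Bcat1. Phgdh had r = 0.872 with Psat1 and 0.806 with Psph, its neighbours in the pathway, and Atf4 had r between -0.76 and -0.05 with the other members. The genes most alike were sought among those with a range over 1 log2 unit and a highest group mean over 6, 3167 candidates for Psat1. Each gene named is the top of such a ranking, which describes a shape and tests no tie between genes. The closest to Psat1 was Ldha, lactate dehydrogenase (r = 0.998), followed by Nxn (0.998) and Xrcc6 (0.998). The closest to Shmt2 were Nsun2 (0.998), Nefh (0.998) and Nxn (0.998), and those to Bcat1 were Set (0.999), Gemin8 (0.999) and Cct6a (0.998). Psph was closest to Psme3 (0.999), Polr2f (0.999) and Nop56 (0.999). Phgdh was closest to Rpa2 (0.993), Calr (0.991) and Dtl (0.990). Aldh18a1 was closest to Gmppb (0.994), Asns to Dlat (0.968) and Shmt1 to Psmb3 (0.980).

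The partners of these enzymes were counted on lists chosen by function. Of 24 serine, glycine and one-carbon partners 14 were measured, and at 24 h 8 rose in Sle1b.BAC, 7 in B6.Sle1b and 8 in C57BL/6, with none lower. Values on the lists are given for Sle1b.BAC, B6.Sle1b and C57BL/6 in that order. Counts at 24 h, higher and lower together, can be read against the 29.1%, 28.2% and 24.3% of all genes called then. Counts of higher genes at 24 h can be read against 17.2%, 14.8% and 15.7%. At 4 h 10.6%, 5.69% and 7.04% of all genes were called, and 4.22%, 2.57% and 4.08% were called higher. The first list's median was 0.43, 0.50 and 0.51. Mthfd1, the cytosolic folate enzyme that passes on one-carbon units, rose by 2.48 ± 0.27, 2.52 ± 0.27 and 2.47 ± 0.30. Gart, a purine synthesis enzyme that uses them, rose by 2.38 ± 0.29, 2.44 ± 0.29 and 2.32 ± 0.32. Tyms, thymidylate synthase, rose by 2.52 ± 0.26, 1.91 ± 0.26 and 2.41 ± 0.29, and Ahcy, which clears the product of methylation reactions, by 1.22 ± 0.11, 1.07 ± 0.11 and 1.19 ± 0.12. The limma adjusted p of these 12 differences lay between 6.26e-09 and 6.94e-06. At 4 h none of the 14 rose and 1 was lower, Ahcy in Sle1b.BAC (-0.35 ± 0.11). Mthfd2, the mitochondrial enzyme next to Shmt2, was not analysed here.

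Of 20 partners around proline, glutamate, aspartate and ornithine 13 were measured, and at 24 h 3 were higher and 1 lower in Sle1b.BAC, 3 and 2 in B6.Sle1b and 4 and 2 in C57BL/6, with list medians of 0.11, 0.22 and 0.13. In Sle1b.BAC the 4 called of 13 are about the share called among all genes. Odc1, ornithine decarboxylase, was lower, with -1.25 ± 0.13 in Sle1b.BAC, -1.61 ± 0.13 in B6.Sle1b and -1.52 ± 0.15 in C57BL/6. Got2, the mitochondrial aspartate aminotransferase, rose by 1.14 ± 0.20, 1.20 ± 0.20 and 1.21 ± 0.23, and Asrgl1, an asparaginase, by 1.11 ± 0.18, 0.80 ± 0.18 and 1.14 ± 0.20. Prodh, which breaks proline down, differed by 0.78 ± 0.16, 0.31 ± 0.16 and 0.83 ± 0.18 and was called in Sle1b.BAC and C57BL/6. Oat, ornithine aminotransferase, was lower at 4 h in all 3 strains (-0.49, -0.73 and -0.55, limma adjusted p = 0.00722, 0.000230 and 0.00373). Pycr1, the reductase that follows Aldh18a1 toward proline, was not analysed here.

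Of 10 branched-chain partners 8 were measured, with 4 higher and 1 lower at 24 h in Sle1b.BAC, 3 and 2 in B6.Sle1b and 3 and 1 in C57BL/6, with list medians of 0.73, 0.16 and 0.57. Mccc1 and Mccc2, subunits of a carboxylase of leucine breakdown, rose by 0.88 and 1.05 in Sle1b.BAC, 0.72 and 0.74 in B6.Sle1b and 0.70 and 1.20 in C57BL/6. Bckdk, the kinase that inhibits the branched-chain ketoacid dehydrogenase, rose by 0.89 ± 0.20, 1.03 ± 0.20 and 1.29 ± 0.22, while Bckdha, a subunit of that dehydrogenase, changed by -0.94 ± 0.18, -1.20 ± 0.18 and -1.26 ± 0.21. Bcat2, the mitochondrial counterpart of Bcat1, differed by 0.21, 0.19 and 0.41 and was not called (limma adjusted p = 0.549, 0.550 and 0.252).

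Regulators, partners and targets of ATF4 moved both ways. Of 28 genes 27 were measured, and at 24 h 8 were higher and 6 lower in Sle1b.BAC, 3 and 8 in B6.Sle1b and 5 and 6 in C57BL/6, with list medians of 0.04, 0.07 and -0.05. Ppp1r15a, the phosphatase subunit that ends eIF2 phosphorylation, changed by -2.84 ± 0.23, -3.06 ± 0.23 and -2.62 ± 0.26, and Eif2ak3, the eIF2 kinase of the endoplasmic reticulum, by -2.71 ± 0.26, -2.76 ± 0.26 and -2.33 ± 0.29. Both were already lower at 4 h, at -1.45, -1.07 and -1.10 for Ppp1r15a and -2.35, -1.90 and -2.03 for Eif2ak3. Eif4ebp1, an inhibitor of translation and an ATF4 target, rose by 1.31 ± 0.22, 1.21 ± 0.22 and 1.58 ± 0.24, whereas Slc38a2, an amino acid transporter, changed by -1.15 ± 0.14, -1.35 ± 0.14 and -1.14 ± 0.16. Ddit3, the stress factor CHOP, was lower in all 3 strains (-0.62, -0.47 and -0.49). Trib3 differed by 0.04, 0.38 and 0.35, Cebpb by -0.11, -0.61 and -0.27, and Eif2ak4, the kinase that senses uncharged tRNA, by 0.46, 0.24 and 0.67, none of them called at 24 h. At 4 h 0 of the 27 were higher and 6 lower in Sle1b.BAC, 1 and 3 in B6.Sle1b and 1 and 4 in C57BL/6.

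Among 13 genes of the chaperone arm of the unfolded protein response, all measured, 8 were higher and 2 lower at 24 h in Sle1b.BAC, 6 and 2 in B6.Sle1b and 6 and 2 in C57BL/6, with list medians of 0.50, 0.53 and 0.58. Sdf2l1, a chaperone cofactor, rose by 2.98 ± 0.20, 2.60 ± 0.20 and 2.69 ± 0.23, and Pdia6, a disulfide isomerase, by 0.98 ± 0.10, 0.89 ± 0.10 and 0.89 ± 0.12. Dnajb9, a cochaperone, changed by -1.49 ± 0.12, -2.21 ± 0.12 and -1.57 ± 0.14. Manf, a secreted stress factor, rose by 0.84, 0.57 and 0.62. Hspa5, the main chaperone of the compartment, was 0.28, -0.09 and 0.06 and called only in Sle1b.BAC (limma adjusted p = 0.0487).

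**Figure D4:**
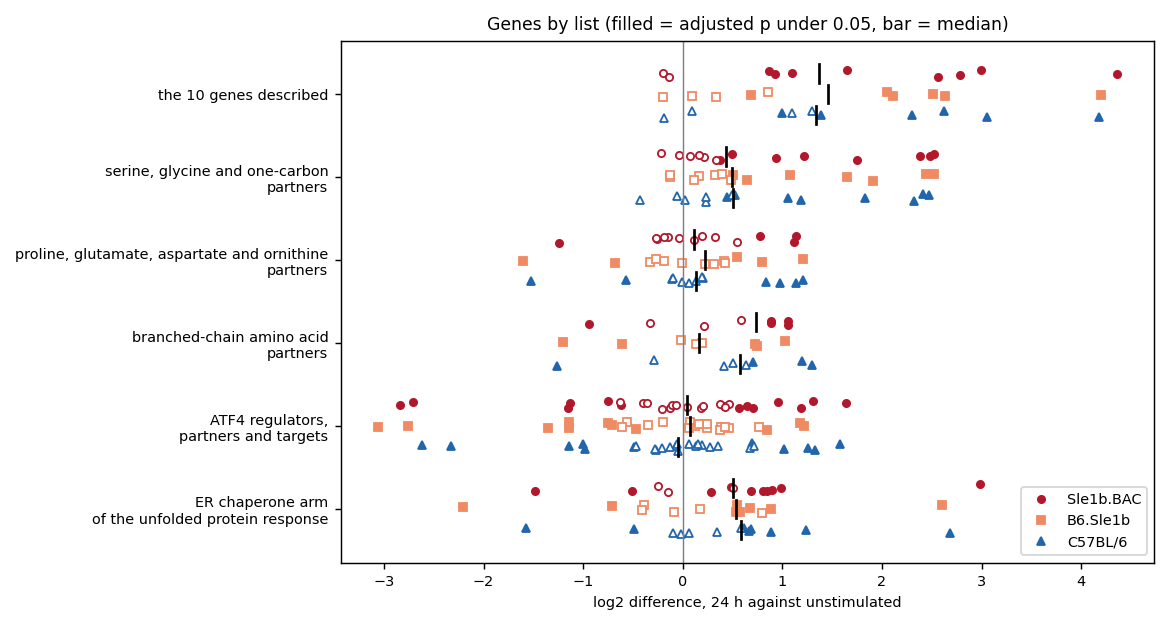
Difference between 24 h and unstimulated cells on the log2 scale for every measured gene of the 10 described and of 5 lists of partner genes, in rows for Sle1b.BAC, B6.Sle1b and C57BL/6, filled where the adjusted p was under 0.05, with a bar at each median. The one-carbon partners lie mostly right of 0, and the ATF4 list spreads from below -2 to above 1 with its medians near 0.

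Markers of other cells moved with time as well. The 3 measured of 5 plasma cell markers summed to intensities of 625 to 1181 at 24 h against 4343 to 6018 unstimulated in Sle1b.BAC, 623 to 1217 against 3652 to 5992 in B6.Sle1b and 249.8 to 622 against 2420 to 4085 in C57BL/6, with Tnfrsf17 at background at 24 h in the last 2. The 6 genes of the NK cell list, some of which activated T cells also express, summed to 793 to 1059 at 24 h against 331 to 484 unstimulated in Sle1b.BAC, 766 to 1067 against 402 to 497 in B6.Sle1b and 812 to 1038 against 387 to 573 in C57BL/6, with Klra8 at background in each of these groups. The 8 measured CD4 T cell markers summed to 5804 to 6783 at 24 h against 7933 to 8684 unstimulated in Sle1b.BAC, 6171 to 7070 against 8066 to 8930 in B6.Sle1b and 6510 to 7074 against 8317 to 8774 in C57BL/6. The 3 measured of 5 erythroid markers summed to 193 to 941 at 24 h against 841 to 2190 unstimulated in Sle1b.BAC, 1471 to 1741 against 3363 to 3815 in B6.Sle1b and 588 to 1770 against 1376 to 3813 in C57BL/6. The 8 monocyte and macrophage markers summed to 108 to 187 against 82.1 to 106 in Sle1b.BAC, 132 to 148 against 83.6 to 114 in B6.Sle1b and 73.9 to 79.8 against 70.6 to 83.9 in C57BL/6, with C1qa and C1qb at background in all of these groups but unstimulated B6.Sle1b. The part of these shifts in the differences of the amino acid genes was not tested.

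Between strains no member was called. The comparisons set Sle1b.BAC against B6.Sle1b, which asks about the added chromosome, and Sle1b.BAC and B6.Sle1b each against C57BL/6, once per time and once averaged over the 3 times. The count was 0 of 10 by limma in all 12 comparisons, where 0.0819%, 0%, 0% and 0.0819% of all genes were called for Sle1b.BAC against B6.Sle1b (unstimulated, 4 h, 24 h and mean). For Sle1b.BAC against C57BL/6 the shares were 0.0585%, 0.0643%, 0.0351% and 0.228%, and for B6.Sle1b against C57BL/6 0.123%, 0.0409%, 0.0409% and 0.333%. Of the 120 member values in these comparisons 7 had an unadjusted p under 0.05, 4 of them in unstimulated cells. Psat1 was -0.41 ± 0.18 in Sle1b.BAC against B6.Sle1b (95% interval -0.78 to -0.04, limma adjusted p = 0.578) and 0.50 ± 0.18 in B6.Sle1b against C57BL/6 (95% interval 0.12 to 0.87, 0.882). Psph was -0.46 ± 0.16 in Sle1b.BAC against B6.Sle1b (95% interval -0.78 to -0.13, 0.461), and Asns was 0.78 ± 0.31 in B6.Sle1b against C57BL/6 (95% interval 0.13 to 1.42, 1.0). These comparisons share the B6.Sle1b arrays. Over the mean of the 3 times Psat1 (-0.23 ± 0.10) and Psph (-0.21 ± 0.09) in Sle1b.BAC against B6.Sle1b, and Psph in Sle1b.BAC against C57BL/6 (-0.22 ± 0.09), had limma adjusted p of 0.793, 0.792 and 0.657.

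At 24 h, where most members were highest, the strain differences were small for the steadier genes. Psat1 in Sle1b.BAC against C57BL/6 was 0.03 (95% interval -0.39 to 0.45), Psph -0.05 (-0.42 to 0.31) and Bcat1 0.02 (-0.48 to 0.51). In B6.Sle1b against C57BL/6 Psat1 was -0.05 (-0.46 to 0.37), Psph -0.05 (-0.41 to 0.32) and Bcat1 -0.04 (-0.53 to 0.46). The intervals of these 6 differences were narrower than the rises at 24 h. For Shmt1 the interval in Sle1b.BAC against C57BL/6 ran from -1.12 to 0.99 and for Phgdh from -0.73 to 0.99, both reaching beyond the 6 intervals of the steadier genes. Over all members the 24 h differences ran from -0.28 (Asns) to 0.36 (Chac1) in B6.Sle1b against C57BL/6. In Sle1b.BAC against B6.Sle1b they ran from -0.37 (Shmt1) to 0.29 (Asns).

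The response to antibody was compared between strains by interaction terms. None of the 10 members was called in any of the 4, namely the 4 h and the 24 h response in Sle1b.BAC minus that in B6.Sle1b and in B6.Sle1b minus that in C57BL/6. Of all genes 0%, 0.00585%, 0% and 0% were called in these. The 24 h response of Asns in B6.Sle1b minus that in C57BL/6 was -1.06 ± 0.47 (95% interval -2.03 to -0.09, limma adjusted p = 0.983), the only one of the 40 member values with an unadjusted p under 0.05. Thus Phgdh, Shmt1 and Asns, called at 24 h in some strains and not in others, were not shown to differ in response between strains. No gene of the 5 partner lists was called in a strain comparison or an interaction term either (lowest limma adjusted p of 0.214 and 0.433), with 55 of 900 and 15 of 300 values at an unadjusted p under 0.05.

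**Figure D5:**
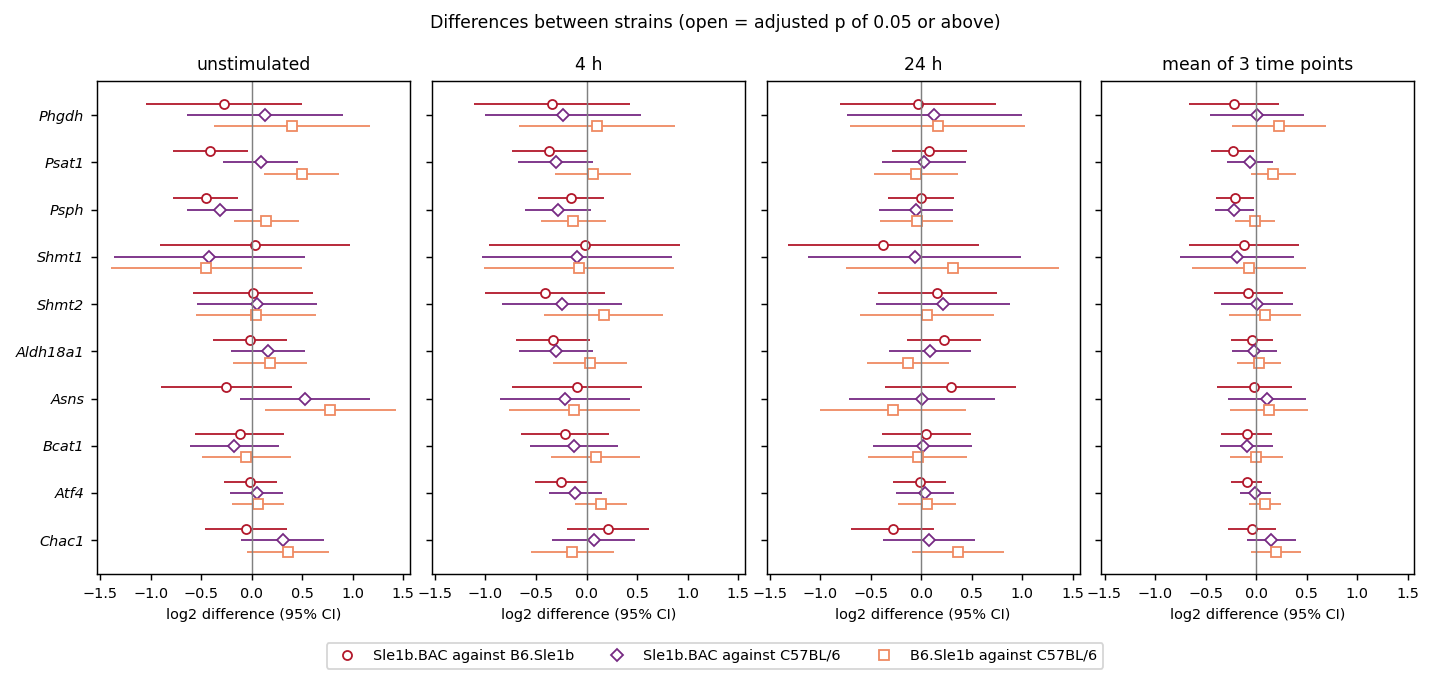
Differences between strains on the log2 scale with 95% confidence intervals for the 10 genes, in panels for unstimulated cells, 4 h, 24 h and the mean of the 3 times, for Sle1b.BAC against B6.Sle1b, Sle1b.BAC against C57BL/6 and B6.Sle1b against C57BL/6. All symbols are open, since no adjusted p was under 0.05, and the widest intervals are those of Shmt1 and Phgdh.

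Summed B cell markers of unstimulated cells were lower in Sle1b.BAC and B6.Sle1b than in C57BL/6 on every array. The sums of neutrophil markers in unstimulated cells overlapped between strains but reached higher in the first 2. In unstimulated cells 7 measured of 8 B cell markers summed to 300.8 to 434.5 in Sle1b.BAC, 285 to 424 in B6.Sle1b and 471 to 643 in C57BL/6, with Pax5 and Cr2 at background in all 3. The 6 measured of 7 neutrophil markers summed to 129.8 to 785 in Sle1b.BAC, 80.9 to 590 in B6.Sle1b and 49.6 to 155 in C57BL/6, with Lcn2 at background in the last. Unstimulated plasma cell sums were higher in Sle1b.BAC (4343 to 6018) than in C57BL/6 (2420 to 4085) on every array and overlapped both in B6.Sle1b (3652 to 5992). Erythroid sums of 841 to 2190 in unstimulated Sle1b.BAC lay below the 3363 to 3815 of B6.Sle1b and overlapped the 1376 to 3813 of C57BL/6. At 24 h neutrophil sums were 129 to 534 in Sle1b.BAC and 149 to 657 in B6.Sle1b, above the 54.5 to 72 of C57BL/6 without overlap. Monocyte and macrophage sums at 24 h were likewise apart, at 108 to 187 and 132 to 148 against 73.9 to 79.8. B cell sums at 24 h were lower, at 269 to 292 and 234 to 327 against 352 to 495. The part of these differences in the strain values of the members was not tested.

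The 2 technical arrays of C57BL/6 at 24 h gave values close to the biological pair. Their mean minus that of the biological pair ranged from -0.31 for Shmt1 to 0.11 for Psph.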

How the data were processed

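RNA of 28 samples was measured on Affymetrix arrays of the type HT MG-430 PM. The deposited values are intensities on a linear scale, made by the authors with RMA, per the submitters' processing notes, and the version is not given in the sources used here. For this report log2 was taken. Of 45141 probe sets 28898 have 1 symbol in the platform's annotation, 551 several and 15692 none. Of those with 1 symbol, 28689 carry a gene identifier found in the RefSeq table of GRCm38.p6. Each gene was read through its brightest probe set. The 17097 genes were fitted with limma 3.58.1 in R 4.3.3 on the 26 biological arrays as 9 groups, with 25 comparisons, Benjamini-Hochberg adjustment over all genes and a threshold of 0.05. Background was the 95th percentile of 23 non-specific control probe sets per array. The code was tested on simulated data.

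All 10 members were named in every comparison, with up to 4 called genes per partner list of smallest adjusted p, a few partners fixed by name, and the genes most alike in group means. The members and lists were chosen with earlier results of these data known. No pair of arrays held identical values. With group means removed, same-numbered arrays of a strain correlated over 0.1 in 15 of 25 pairs (median r = 0.158). Arrays of a strain with unlike numbers did so in 11 of 50 pairs (median r = -0.095). A pairing by number is thus possible. The main fit did not use it, and blocks by number were among the alternatives. Alternatives covered scaling, probe set choice, filters, blocks and left-out arrays.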

Additional observations from a re-analysis of the deposited data

Results flagged for a closer look

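The 4 h difference of Chac1, the glutathione-degrading enzyme, had opposite signs in B6.Sle1b and C57BL/6, but neither was called. It was -0.30 in B6.Sle1b and 0.20 in C57BL/6 on the log2 scale. All 3 arrays of B6.Sle1b at 4 h lay below the unstimulated mean of that strain, and all 3 of C57BL/6 above theirs. The case was picked by this pattern from the 40 member values of the interaction terms, so the pattern is no separate result. Single unstimulated arrays went the other way, 4.23 in B6.Sle1b below all its 4 h arrays and 4.84 in C57BL/6 above all of its own. The response in B6.Sle1b minus that in C57BL/6 was -0.50 ± 0.28 (SE), which limma did not call (adjusted p = 1.0).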

How the results depend on the processing

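The 44 calls of a member were recomputed under other settings, and of 737 such values 687 kept the call, 50 lost it and 0 reversed, with 32 calls held under every one. Calls were lost under at least 1 setting for every member called at 4 h except Psph in Sle1b.BAC, for every call of Asns, for Phgdh at 24 h against unstimulated cells in Sle1b.BAC and against 4 h in C57BL/6, and for Aldh18a1 at 24 h in B6.Sle1b when only the groups compared were fitted (adjusted p = 0.0898). Of the counts, those at 24 h against unstimulated or 4 h cells stayed within 1.5 times under every alternative, and the 16 comparisons of strains or responses gave 0 under all. The count of 2 at 4 h in Sle1b.BAC became 1 with each array centred on its median, and 1 to 2 on leaving out 1 array. The count of 1 in B6.Sle1b became 2 with arrays quantile normalized again, 0 with only the groups compared, 2 with strain and number as a random replicate block, 3 with the 75th percentile as covariate, 3 without the 3 dimmest arrays and 0 to 2 on leaving out 1 array. The count of 4 in C57BL/6 became 1 with median centring, 0 with only the groups compared, 2 without the 3 dimmest arrays and 0 to 3 on leaving out 1 array. Bcat1 at 4 h fell short of the threshold in all 3 strains when its probe sets were averaged (0.33, 0.29 and 0.28 in Sle1b.BAC, B6.Sle1b and C57BL/6), an average that takes in a set above background on 0 arrays. The fixed replicate block gave 2, 1 and 4 calls at 4 h in Sle1b.BAC, B6.Sle1b and C57BL/6 and 8, 6 and 8 at 24 h. The dim filter left 12568 genes to test. The other probe sets, added after the data had been seen, reversed no call. Signal close to background limits Bcat1 in unstimulated cells, and the number of arrays limits Phgdh, Shmt1 and Asns most, whose arrays within a group spread widest.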
